A study of Homo sapiens with 22 samples.

Results

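Early response genes, which answer growth signals and stress, were followed here by symbol through every deposited gene table: IER2, IER3, IER5, IER5L, EGR1, EGR3, TRIB1, SRF, MCL1 and CITED2. All 10 were found, among 58870 genes listed in the siRNA tables and 57820 in the actinomycin D tables. The study sequenced RNA of the human colorectal cancer lines LS180 and HCT116, as 22 libraries that fall into 8 groups. LS180 cells received siCTRL or siSTAU1 for 72 + 72 h, with n = 2 libraries each. Separately, LS180 and HCT116 cells were collected after 0, 2 and 4 h of actinomycin D at 5 µg/ml, with n = 3 libraries for each line and time. STAU1 encodes Staufen1, a protein that binds double-stranded RNA and can send mRNAs to decay. Actinomycin D binds DNA and blocks transcription, so that existing RNA is followed as it decays. Nothing in the labels says that the libraries of a group came from separate cultures, and p-values then measure only the spread between these libraries, which may be technical. In such bulk samples, fewer cells that express a gene and less RNA of it per cell cannot be told apart.

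Immediate early genes are transcribed within minutes of a growth factor or stress signal, without new protein synthesis, and many give short-lived mRNAs. A common route runs through the ERK kinase cascade to ternary complex factors such as ELK1, which sit with the serum response factor SRF on CArG boxes of promoters. EGR1 and EGR3 are zinc finger transcription factors switched on this way and held back by the corepressors NAB1 and NAB2. IER2, IER3, IER5 and IER5L are small early response proteins. IER3 acts in survival and ERK signalling, and IER5 in the heat shock response. TRIB1 is a pseudokinase that brings the ubiquitin ligase COP1 to C/EBP proteins. MCL1 is an antiapoptotic BCL2 family member with a short-lived protein and mRNA, and CITED2 competes with HIF1A for the coactivators CBP and p300. AU-rich elements in the 3′ UTR, built around the pentamer ATTTA, are a known feature of many short-lived early response mRNAs.

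The sequences that bear on the group are the CArG box and the AU-rich element. In RefSeq's promoter table (GRCh38.p14), 6 genes of the group matched with 9 windows, of which the 250 bases before the start were searched on both strands. Windows of EGR1 and SRF each held a pair of CArG boxes, which 0.0313% of the 35116 windows in the table did, and 1.16% held at least 1. The windows of IER2, IER5, IER5L and CITED2 held none, and for SRF a second start further downstream held none. Both windows with boxes are shown, box letters in capitals, because EGR1 fell most of the group after siSTAU1, and SRF is the protein that reads the box.
EGR1, chr5:138465229-138465478 (+): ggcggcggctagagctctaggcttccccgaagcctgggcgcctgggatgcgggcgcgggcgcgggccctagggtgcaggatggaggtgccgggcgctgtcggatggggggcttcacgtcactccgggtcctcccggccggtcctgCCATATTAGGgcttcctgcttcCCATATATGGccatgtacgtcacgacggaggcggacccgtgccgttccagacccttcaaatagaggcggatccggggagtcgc
SRF, chr6:43171019-43171268 (+): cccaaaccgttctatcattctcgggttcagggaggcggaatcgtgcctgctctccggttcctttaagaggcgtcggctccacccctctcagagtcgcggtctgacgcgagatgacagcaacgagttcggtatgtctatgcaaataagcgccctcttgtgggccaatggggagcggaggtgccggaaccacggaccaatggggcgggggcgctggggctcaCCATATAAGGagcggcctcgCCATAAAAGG

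AU-rich pentamers were counted in 1 GENCODE v29 transcript per gene, on the transcript strand. The IER3 3′ UTR held 6 ATTTA in 737 bases, 4 of them within TATTTAT, and only 2.88% of the 2080 3′ UTRs within 20% of its length held as many. IER5 had 10 in 3013 bases, MCL1 10 in 2819 and SRF 3 in 2317, with 4, 3 and 2 TATTTAT. Of 3′ UTRs within 20% of those lengths, 26.2%, 22.6% and 72.4% held as many ATTTA, and 55.9%, 54.0% and 47.6% held TATTTAT. IER5L, CITED2 and EGR3 had 3 each, EGR1 and TRIB1 1 each, and none of these 5 held TATTTAT. IER2 had none of either in 1050 bases, although the median 3′ UTR of its length held 2. Over all 18963 3′ UTRs, 64.3% held ATTTA and 28.8% TATTTAT. One 30-base site of each gene with TATTTAT is shown, ATTTA in capitals, because after actinomycin D these genes ranged from IER3, among the steepest falls, to SRF, the shallowest.
IER3, chr6:30743648-30743677 (-): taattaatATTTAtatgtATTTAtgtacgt
IER5, chr1:181092448-181092477 (+): ttcctttATTTATTTATTTATTTAattata
MCL1, chr1:150575807-150575836 (-): tccctctacagatATTTAtatcaattccta
SRF, chr6:43179223-43179252 (+): gatggcaccacttATTTAttgttgcctttt

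Positions are from GRCh38 (GENCODE v29). IER5 is at chr1:181088712-181092899 (+), MCL1 at chr1:150574551-150579738 (-), EGR1 at chr5:138465490-138469315 (+) and IER3 at chr6:30743199-30744554 (-). SRF is at chr6:43171299-43181507 (+), CITED2 at chr6:139371807-139374620 (-), IER5L at chr9:129175552-129178262 (-) and IER2 at chr19:13150415-13154908 (+), while EGR3 and TRIB1 are on chromosome 8. The actinomycin D tables were made on hg19, so these positions describe the genes and not those files.

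Depth was 23.73 to 26.66 M counts per siRNA library and 47.84 to 61.42 M per actinomycin D library. STAU1 itself, the targeted gene, measured 144.3 and 140.9 CPM (counts per 1000000 counts) in the siCTRL libraries and 9.70 and 9.17 in the siSTAU1 libraries. All 5 epithelial markers exceeded 1 CPM in both lines. The 4 goblet cell markers summed to 952.6 to 1062 CPM in LS180 at 0 h and to at most 0.195 in HCT116, where the intestinal marker CDX1 was at 0 and VIL1 and LGALS4 were under 1 CPM. The other intestinal markers, CDX2 and KRT20, averaged at least 1 CPM in HCT116 at 0 h. In LS180 at 0 h KRT20 was the only intestinal marker under 1 CPM. Of 12 markers of fibroblasts, immune cells and endothelium, 11 of which were found in the actinomycin D tables, at most 3 exceeded 1 CPM in any group. These were COL3A1, CD14 and LYZ with siCTRL and siSTAU1. In the actinomycin D libraries they were LYZ alone in LS180 and COL1A1 alone in HCT116. All 12 together summed to 228.1 to 238.6 CPM with siCTRL and 100.3 to 102.1 with siSTAU1, while goblet markers summed to 2178 to 2227 and 3506 to 3641. Whether these shifts bear on the genes followed was not tested. Libraries numbered 1 in HCT116 stood apart from the others at each time, and LS180 at 4 h split into library 1 against 2 and 3, so results are also given without them. Abundant small noncoding RNAs (genes with symbols that begin with RN7S, 7SK, RNU, RMRP or RPPH) together took 15.44% to 23.98% of counts in the actinomycin D libraries. In LS180 at 4 h they took 15.96% in library 1, 20.79% in library 2 and 23.98% in library 3, and their part in the split was not tested.

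Silencing of STAU1 in LS180 moved the group in both directions, by small amounts. EGR1 fell to 58.9% of its siCTRL level and IER2 to 83.8%, whereas CITED2 rose 1.29-fold, IER5 1.18-fold, TRIB1 1.16-fold, MCL1 1.14-fold and SRF 1.10-fold. Thus 5 of 10 rose and 2 fell, in a comparison where edgeR called 23.0% of 14073 genes higher and 23.0% lower. The median log2 change of the 10 was 0.06, against 0.00 over all genes tested. The rises depended on how the libraries were scaled: when set to ribosomal protein genes, which lowered the median of all genes by 0.20 on the log2 scale and turned the split of all genes from 3242 higher and 3240 lower into 903 and 5537, none of the 10 rose and 3 fell, namely EGR1, IER2 and IER3.

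Among the transcription factors of the immediate early type, EGR1 measured 11.33 and 11.03 CPM with siCTRL and 6.97 and 6.19 with siSTAU1. Both knockdown libraries were below both controls, and the log2 change was -0.76 ± 0.11 (SE; edgeR quasi-likelihood test, adjusted p = 0.000135). Only 3.03% of genes tested had a lower log2 change. EGR3 was close to the limit of detection, at 0.369 and 0.877 CPM with siCTRL and 0.321 and 0.483 with siSTAU1, or 8 to 21 counts per library. Its groups overlapped, and its log2 change of -0.60 ± 0.52 (SE) did not pass the test (edgeR adjusted p = 0.371).

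SRF, which drives EGR1 and also binds its own promoter, measured 62.1 and 62.5 CPM with siCTRL and 66.7 and 70.4 with siSTAU1. The groups did not overlap and the log2 change was 0.14 ± 0.05 (SE), with an edgeR adjusted p of 0.0392. That call was lost in DESeq2 (adjusted p = 0.136), without a filter on low counts (0.0896), with total library size (0.117), with effective length (0.128), and when siCTRL library 1, siCTRL library 2 or siSTAU1 library 2 was left out (0.192, 0.161 and 0.207). SRF therefore stood at the edge of what 2 libraries a group resolved.

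Of the IER genes, IER2 had 74.2 and 78.4 CPM with siCTRL and 63.9 in each siSTAU1 library. It was lower in both, by a log2 change of -0.25 ± 0.05 (SE; edgeR adjusted p = 0.00118). IER5 went the other way, from 33.9 and 33.3 CPM to 39.8 and 39.2, a log2 change of 0.23 ± 0.06 (SE; edgeR adjusted p = 0.00802). IER3 measured 73.5 and 73.9 CPM against 70.1 and 72.9, with a log2 change of -0.04 ± 0.05 (SE) that did not pass (edgeR adjusted p = 0.473). IER5L, the paralog of IER5, had 26.2 and 27.2 CPM against 28.0 and 24.6, and its groups overlapped (edgeR adjusted p = 0.837). The 4 IER genes thus held 1 fall, 1 rise and 2 that did not pass.

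TRIB1 rose from 46.9 and 44.9 CPM to 53.5 and 53.2, a log2 change of 0.22 ± 0.06 (SE; edgeR adjusted p = 0.00827). Without siCTRL library 2, neither TRIB1 (adjusted p = 0.0865) nor IER5 (0.0663) passed. MCL1 was the most abundant of the group, with 272.0 and 270.6 CPM under siCTRL and 308.8 and 308.1 under siSTAU1. Its replicates were close and its groups apart, with a log2 change of 0.19 ± 0.03 (SE; edgeR adjusted p = 0.000626). CITED2 had the largest rise, from 21.3 CPM in each siCTRL library to 27.3 and 27.7, a log2 change of 0.37 ± 0.07 (SE; edgeR adjusted p = 0.000735). For these rises the value under ribosomal protein scaling was 0.17 for CITED2, 0.03 for IER5, 0.02 for TRIB1, -0.01 for MCL1 and -0.06 for SRF on the log2 scale, none of which passed.

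**Figure D1:**
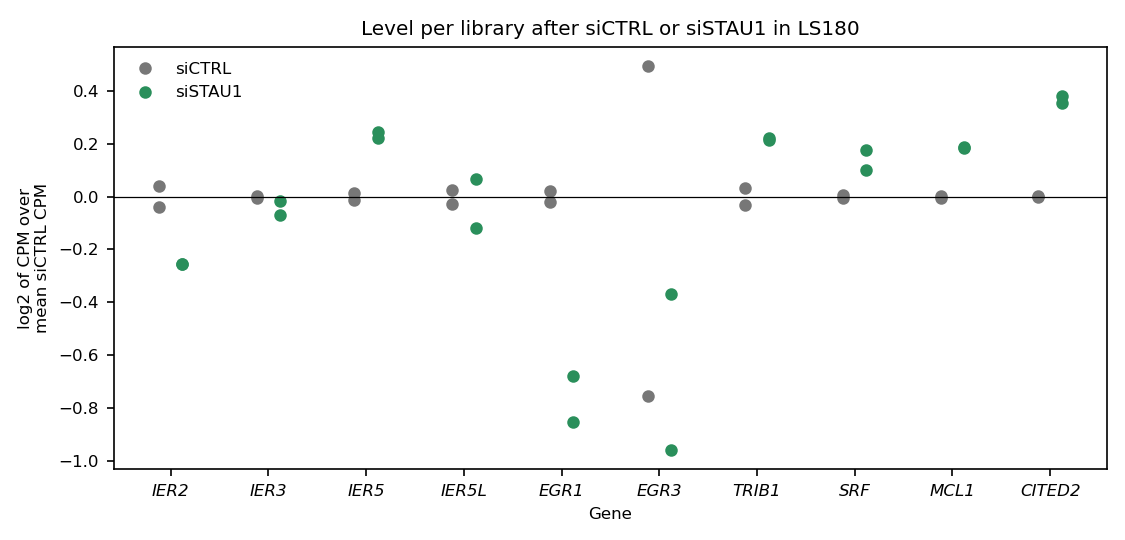
Each dot is 1 LS180 library, as the log2 ratio of its CPM to the mean siCTRL CPM of that gene (y axis), for the 10 genes (x axis), grey for siCTRL and green for siSTAU1. EGR1 and IER2 lie below their controls, IER5, TRIB1, SRF, MCL1 and CITED2 above, and the EGR3 dots, from 8 to 21 counts, overlap.

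Genes around the group were counted from lists of the same pathways. Over all 14073 genes tested, 23.0% were called higher after siSTAU1 and 23.0% lower. Of 41 other immediate early genes tested after siSTAU1, 13 rose and 6 fell (median log2 change 0.16), again with a split that turned to 5 and 12 under ribosomal protein scaling. The small GTPase RHOB rose 2.05-fold, from 63.2 to 63.7 CPM up to 126.3 to 133.6 CPM, and the chemokine CXCL8 rose 2.66-fold, from 24.2 to 25.1 CPM up to 65.2 to 66.0 CPM. Of 7 SRF partners and EGR corepressors, 4 fell and 1 rose. The falls were in NAB1 (log2 change -0.41), ELK3 (-0.41), MRTFB (-0.39) and NAB2 (-0.38), and the rise was in ELK1 (0.24). Of 19 SRF targets of the cytoskeleton, 9 rose and 3 fell: the myosin light chain MYL9 rose 2.25-fold and the actin-binding LIMA1 fell 1.64-fold (edgeR adjusted p = 5.66e-07 and 3.41e-07). In the ERK cascade 9 of 15 rose and 3 fell, led by NRAS (log2 change 0.38) and RPS6KA1 (0.27). Under ribosomal protein scaling the cytoskeletal targets gave 5 rises and 8 falls and the ERK cascade 1 and 5. Of 16 partners of TRIB1, CITED2 and MCL1, 6 fell and 1 rose, with the MCL1 ubiquitin ligase HUWE1 at a log2 change of -0.32 and the coactivator CREBBP at -0.37. TRIB3 was the sole one of 7 paralogs that passed (log2 change -0.22).

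After actinomycin D, 9 of the 10 genes had enough counts to test, and all 9 fell in both lines at both times. IER3 and TRIB1 lost most: at 4 h IER3 was at 4.26% of its 0 h level in LS180 and 4.57% in HCT116, and TRIB1 at 7.58% and 4.36%. SRF lost least, keeping 58.7% and 77.1%. By edgeR, of 17256 genes, 23.9% were called lower and 13.5% higher in LS180 at 2 h, and 31.1% and 26.6% at 4 h. In HCT116 17.1% were lower and 13.8% higher at 2 h, and 23.7% and 26.2% at 4 h. In LS180, 6 of the 9 were at least 4-fold lower at 2 h and 7 at 4 h, and in HCT116 7 and 8, where 3.16%, 6.41%, 1.60% and 3.15% of all genes were. CPM are shares of the RNA that remains, so these are relative and not absolute losses. The percentages kept also depend on the processing. Over all alternatives the SRF log2 change at 4 h ran from -1.304 to -0.505 in LS180 and from -0.776 to -0.284 in HCT116. The split of all genes turned with the scaling while all 9 stayed lower under ribosomal protein scaling. In LS180 it went from 2329 higher and 4121 lower to 54 and 5603 at 2 h, and from 4591 and 5365 to 127 and 10719 at 4 h. In HCT116 it went from 2389 and 2957 to 33 and 3963 at 2 h, and from 4524 and 4085 to 112 and 7317 at 4 h. RLE size factors moved LS180 the other way, to 4863 higher and 3364 lower at 2 h and 6044 and 4613 at 4 h. Total library size gave 1893 and 6460 in LS180, and 2274 and 4409 in HCT116, at 4 h, and 1095 and 3797, and 685 and 2670, at 2 h. All 9 stayed lower under these too. All 9 were also lower without the HCT116 libraries numbered 1, and in LS180 at 4 h without libraries 2 and 3.

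EGR3 was left out of those tests, with 0 to 5 counts per library, at or near the floor of 3 counts, and no fold is given for it. EGR1 was low too, at 14 to 208 counts per library. In LS180 it measured 1.18, 1.01 and 0.987 CPM at 0 h, 0.408, 0.523 and 0.391 at 2 h, and 0.496, 0.282 and 0.501 at 4 h. All treated libraries lay below all untreated ones, and those of 2 and 4 h overlapped. The log2 change was -1.27 ± 0.25 (SE) at 2 h and -1.31 ± 0.26 at 4 h (edgeR adjusted p = 0.000509 and 0.000224). HCT116 went from 3.11, 2.82 and 3.35 CPM to 0.620, 0.593 and 0.827 at 2 h and to 0.719, 0.633 and 0.338 at 4 h. There the log2 change was -2.18 ± 0.22 (SE) and -2.45 ± 0.22, and again the treated times overlapped each other but not 0 h.

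SRF held on longest. LS180 libraries gave 27.8, 27.7 and 25.8 CPM at 0 h, 19.7, 18.7 and 21.5 at 2 h and 17.4, 15.02 and 15.3 at 4 h, each time below the one before without overlap. Its log2 change was -0.44 ± 0.09 (SE) at 2 h and -0.77 ± 0.10 at 4 h (edgeR adjusted p = 0.00107 and 1.36e-06). Without LS180 2 h library 2, the 2 h value was -0.27 and no longer passed (adjusted p = 0.0583). In HCT116 the libraries ran from 28.3, 32.3 and 34.8 CPM to 23.4, 28.5 and 26.4 at 2 h and 22.1, 27.2 and 24.2 at 4 h. The 2 h libraries overlapped those of 0 h, and the log2 change of -0.28 ± 0.09 (SE; edgeR adjusted p = 0.0275) lost its call without 0 h library 2 or 3 or 2 h library 1 or 3 (adjusted p = 0.0719, 0.136, 0.126 and 0.0549), and with effective length (-0.15, adjusted p = 0.233). At 4 h the log2 change was -0.38 ± 0.09 (SE; edgeR adjusted p = 0.0023), and the groups did not overlap. Among all genes, 21.4% fell more than SRF in LS180 at 4 h and 26.6% did in HCT116.

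IER3 had the steepest fall of the group in LS180 at both times and in HCT116 at 2 h. In LS180 it dropped from 56.2, 61.6 and 60.1 CPM to 3.79, 3.62 and 3.05 at 2 h and 2.94, 2.16 and 2.46 at 4 h. HCT116 started higher, at 155.9, 176.1 and 174.5 CPM, and fell to 13.7, 12.5 and 12.4 and then to 8.29, 7.79 and 7.02. At 4 h the log2 change was -4.55 ± 0.10 (SE) in LS180 and -4.45 ± 0.09 in HCT116, below those of all but 0.435% and 0.359% of genes. No library of one time overlapped another in either line. IER3 carries the densest ATTTA pentamers of the group, at 8.14 per kilobase. TRIB1, which kept 7.58% in LS180 and 4.36% in HCT116 at 4 h, carries 0.52 per kilobase. Whether the pentamers bear on the falls was not tested.

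IER2, the member without any ATTTA, fell in LS180 from 38.9, 38.6 and 36.7 CPM to 8.77, 9.17 and 8.70 at 2 h and 6.94, 6.29 and 6.29 at 4 h. In HCT116 the values were 55.8, 62.4 and 64.4, then 11.5, 9.52 and 9.94, then 7.603, 6.90 and 6.47. It thus kept 17.1% in LS180 and 11.5% in HCT116 at 4 h, each time apart from the one before.

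IER5 stood at 23.2, 22.2 and 21.7 CPM in LS180 at 0 h, at 2.62, 2.52 and 2.41 at 2 h and at 2.29, 2.66 and 2.22 at 4 h. The 2 and 4 h libraries overlapped, both far below 0 h. HCT116 went from 46.7, 41.2 and 44.4 CPM to 7.55, 8.85 and 7.997 and then to 5.08, 3.98 and 4.19, without overlap. At 4 h LS180 kept 10.7% and HCT116 10.1%.

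IER5L followed the same shape, from 23.3, 26.5 and 25.7 CPM in LS180 to 2.87, 2.80 and 2.49 and then 2.52, 2.60 and 2.79. In HCT116 it went from 49.8, 39.5 and 41.7 CPM to 6.61, 4.62 and 5.18 and then to 3.96, 2.91 and 2.35. At 4 h it kept 10.5% in LS180 and 7.08% in HCT116. Library 1 was the highest of the HCT116 libraries at each time.

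TRIB1 differed most between the lines in level. LS180 held 30.6, 25.9 and 28.8 CPM at 0 h, 2.43, 2.30 and 2.57 at 2 h and 2.61, 1.98 and 1.83 at 4 h. HCT116 held 325.3, 310.3 and 306.9 CPM, then 29.5, 25.6 and 26.2, then 16.8, 12.3 and 11.9. The 2 h log2 change was alike in size, at -3.54 ± 0.13 (SE) in LS180 and -3.54 ± 0.11 in HCT116. By 4 h it was -3.72 ± 0.14 and -4.52 ± 0.12, so that HCT116 TRIB1 lay below all but 0.348% of genes.

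MCL1 fell in steps. In LS180 it measured 195.5, 196.6 and 198.8 CPM at 0 h, 55.3, 56.5 and 58.5 at 2 h and 30.1, 26.1 and 25.2 at 4 h. HCT116 gave 239.6, 266.5 and 254.5 CPM, then 107.9, 117.1 and 119.6, then 64.4, 54.3 and 57.1. No times overlapped in either line, and 13.8% was kept at 4 h in LS180 and 23.1% in HCT116.

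CITED2 went in LS180 from 10.4, 8.64 and 9.69 CPM to 1.80, 1.46 and 1.16 at 2 h, and 1.47, 1.90 and 1.76 CPM were left at 4 h. Those later times overlapped. In HCT116 it went from 16.99, 12.03 and 12.7 CPM to 3.70, 2.77 and 2.86 and then 2.25, 1.56 and 1.48. At 4 h 17.8% was kept in LS180 and 12.8% in HCT116.

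**Figure D2:**
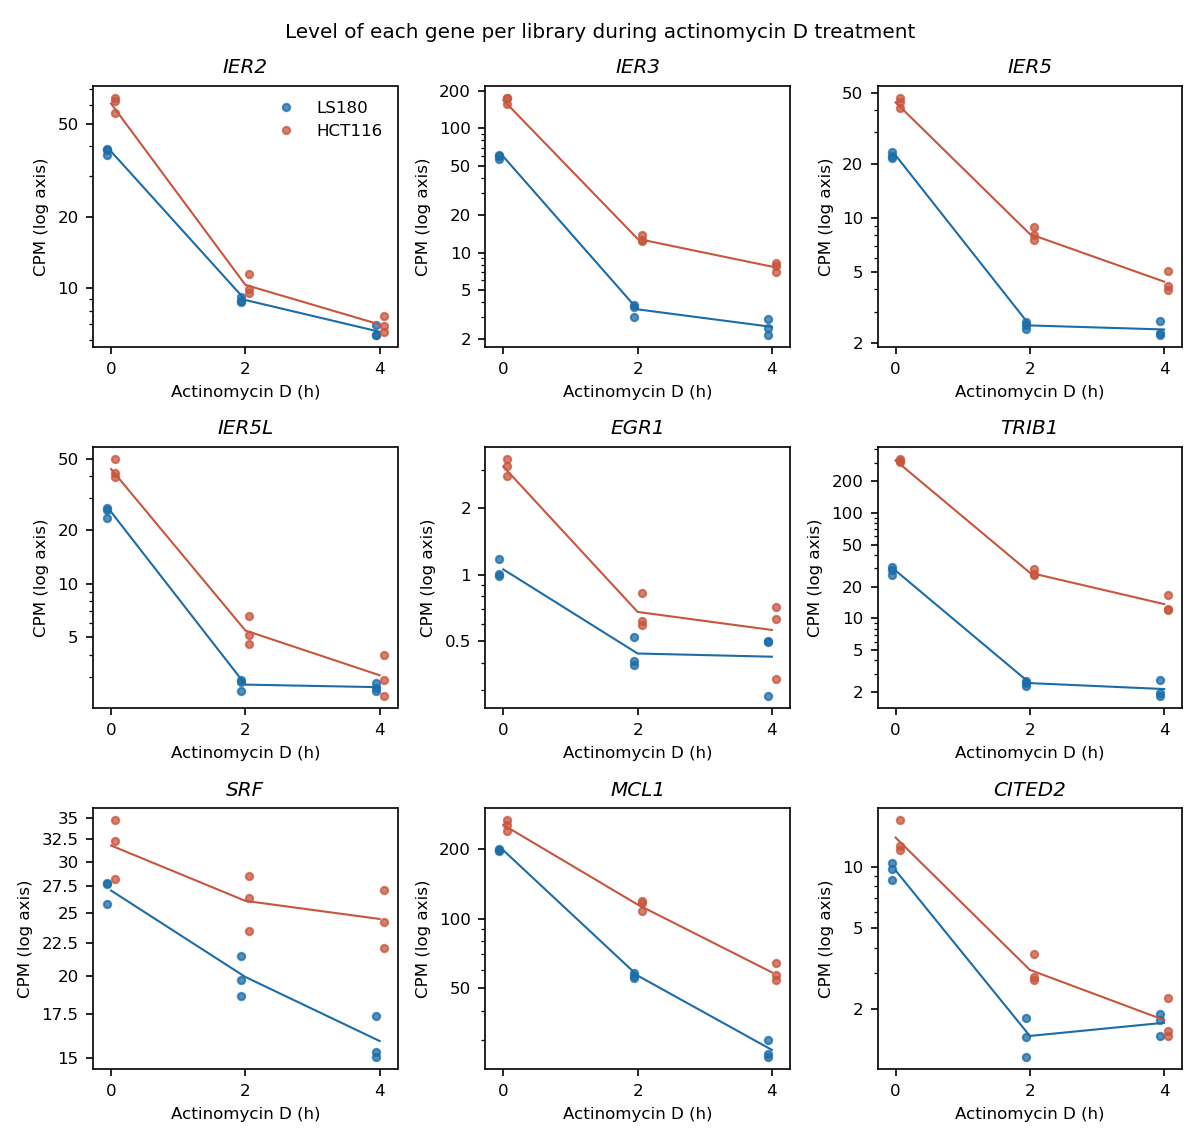
CPM per library (dots, log axis that differs between panels) against hours of actinomycin D for the 9 genes tested, blue for LS180 and red for HCT116, with lines through the group means. All 9 are lower at 2 and 4 h in both lines, from IER3 at under 5% of 0 h to SRF at 58.7% and 77.1% at 4 h.

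From 2 to 4 h the change was not tested between the lines and is given for each. The split of all genes moved from 2106 higher and 3200 lower to 41 and 6609 under ribosomal protein scaling in LS180, and to 241 and 4053 with total library size. In HCT116 it moved from 837 and 1893 to 28 and 2135, and to 203 and 1492, while RLE gave 1253 and 1792. In LS180 4 of 9 fell further, namely MCL1 (log2 change -1.07 ± 0.07), IER3 (-0.46 ± 0.12), IER2 (-0.45 ± 0.08) and SRF (-0.33 ± 0.10, each ± SE), where edgeR called 30.7% of all genes in either direction, 3200 of 17256 lower. IER5, IER5L, EGR1, TRIB1 and CITED2 lay between -0.18 and 0.21 there and did not pass. With LS180 4 h libraries 2 and 3 left out, 1 gene of the 9, MCL1, was still called, with the lone library assumed to vary like the other groups. SRF also lost its call without LS180 2 h library 3, 4 h library 2 or 4 h library 3 (adjusted p = 0.0773, 0.0672 and 0.0564) and with effective length (0.0926), and IER3 when only the groups compared were fitted (0.0509). In HCT116 7 of 9 fell further, where 15.8% of all genes were called in either direction and 1893 of 17256 lower: TRIB1 (-0.98 ± 0.11), MCL1 (-0.97 ± 0.07), IER5 (-0.88 ± 0.09), IER5L (-0.82 ± 0.16), CITED2 (-0.81 ± 0.19), IER3 (-0.74 ± 0.09) and IER2 (-0.56 ± 0.08). EGR1 (-0.27 ± 0.25) and SRF (-0.09 ± 0.09) did not pass. Without the HCT116 libraries numbered 1, 7 of 9 were again called lower.

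Whether a gene fell differently in the lines was tested as the change in HCT116 minus the change in LS180. At 2 h, 3 of 9 differed, in a test that called 5.24% of all genes higher and 0.394% lower (905 and 68 genes). Here too the lower count moved, with 726 higher and 194 lower in DESeq2, 616 and 313 without a filter on low counts, 522 and 254 with at least 1 CPM, and 655 and 387 without LS180 4 h library 1. IER5 (0.71 ± 0.13, adjusted p = 0.00142) and MCL1 (0.65 ± 0.10, adjusted p = 0.000282) had fallen less in HCT116, and IER2 had fallen more (-0.46 ± 0.11, adjusted p = 0.0123; log2 difference ± SE, edgeR). The IER2 call was lost with total library size (0.118), effective length (0.0547) and ribosomal protein scaling (0.258). At 4 h, 4 of 9 differed, where 12.3% of all genes were called higher and 1.33% lower (2129 and 230 genes). That split was not stable: it was 1521 and 451 with RLE, 1726 and 666 with DESeq2, 1372 and 984 without a filter on low counts, and 1253 and 1757 with at least 1 CPM. With single libraries left out it reached 1919 and 2536 (LS180 4 h library 1), 1143 and 972 (HCT116 4 h library 1), 1149 and 944 (LS180 2 h library 2) and 1163 and 976 (HCT116 2 h library 2). MCL1 had again fallen less in HCT116 (0.75 ± 0.10, adjusted p = 3.6e-05), while TRIB1 (-0.80 ± 0.18, adjusted p = 0.00461), IER2 (-0.57 ± 0.11, adjusted p = 0.00142) and EGR1 (-1.14 ± 0.35, adjusted p = 0.0351) had fallen more. The EGR1 call rested on few counts and was lost without LS180 0 h library 2 or 3, LS180 4 h library 3, or HCT116 0 h library 1 or 3 (adjusted p from 0.0522 to 0.122). It was also lost with total library size (0.0741), effective length (0.0616) and only the groups compared (0.0608). IER5 at 4 h lay within its error (-0.09 ± 0.13, SE), as did IER3 (0.10 ± 0.13). The IER3 difference at 2 h (0.38 ± 0.13, SE) was about 3 SE and missed the adjusted threshold (edgeR adjusted p = 0.103), and it passed when only the groups compared were fitted (0.0497). With ribosomal protein scaling, which raised the median line difference of all genes at 4 h to 0.21, MCL1 alone kept its call at 4 h and IER5 alone at 2 h. Without the HCT116 libraries numbered 1, 3 and 6 of 9 differed, the added ones at 4 h being SRF (0.39, adjusted p = 0.0308) and IER5L (-0.70, adjusted p = 0.00305). Shares of all genes called were not set beside these 2 counts. Of genes not called in the main fit, IER5L at 4 h passed in 9 of 29 alternatives, SRF in 3 of 29 and CITED2 in 2 of 29. EGR1 at 2 h passed in 3 of 28. Leaving out LS180 4 h libraries 2 and 3 left only library 1 in that group, so only directions are given. MCL1, IER2, TRIB1 and EGR1 kept theirs at 4 h.

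**Figure D3:**
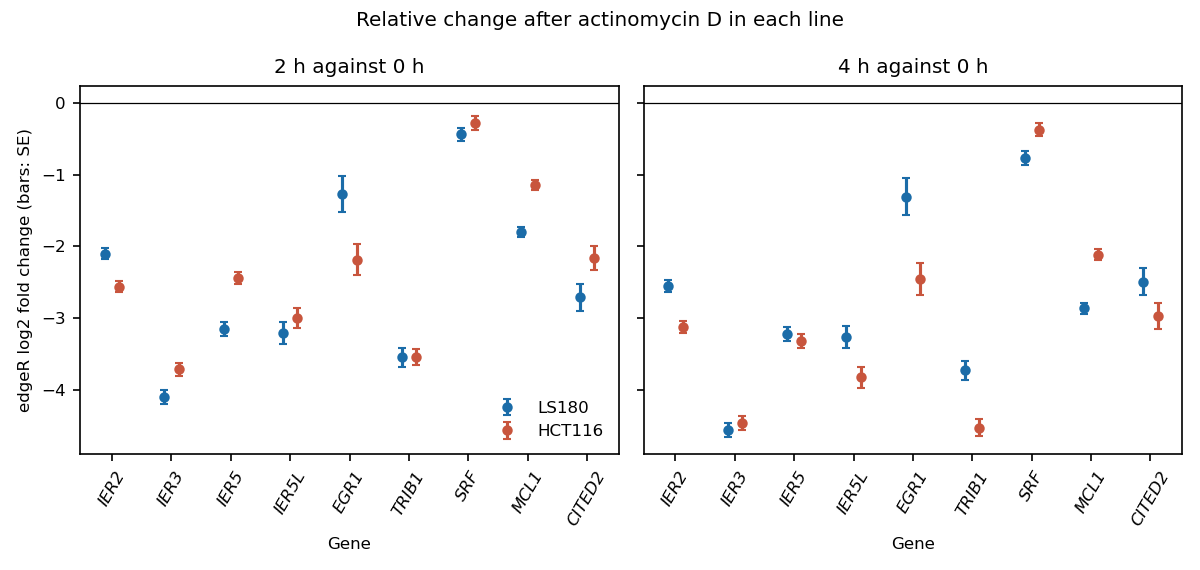
edgeR log2 fold change against 0 h (dots, bars ± SE) for the 9 genes at 2 h (left) and 4 h (right), blue for LS180 and red for HCT116. MCL1 fell less in HCT116 at both times, IER2 fell more, and IER5 fell less at 2 h only, the 4 h difference being -0.09 ± 0.13.

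Before treatment all 9 tested genes were higher in HCT116 than in LS180, in a comparison where edgeR called 33.7% of genes higher and 42.6% lower. Ribosomal protein scaling turned that split from 5819 higher and 7343 lower to 7342 and 5341, with all 9 still higher. TRIB1 stood out with 11.1-fold more (log2 3.47 ± 0.11, SE). EGR1 was 2.92-fold, IER3 2.85-fold, IER5 1.97-fold, IER5L 1.74-fold, IER2 1.60-fold, CITED2 1.45-fold, MCL1 1.29-fold and SRF 1.17-fold higher. The libraries of the lines did not overlap for any of the 9, but the share of all genes without overlap was not counted. Without the HCT116 libraries numbered 1, all 9 were called again. SRF (log2 0.23 ± 0.09, SE; edgeR adjusted p = 0.0315) lost its call without LS180 0 h library 3 or HCT116 0 h library 2 or 3 (adjusted p = 0.108, 0.0716 and 0.157), and with effective length (0.122).

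Levels per transcript length, from the deposited TPM, gave an order within each line. In HCT116 at 0 h IER3 led with 66.2 ± 3.02 TPM (SD, n = 3), followed by TRIB1 at 38.9 ± 4.30, MCL1 at 28.8 ± 1.89 and IER2 at 12.8 ± 0.446. Next came IER5 at 8.52 ± 1.03 and IER5L at 7.24 ± 1.39, whose ranges overlapped, and SRF at 3.49 ± 0.126 and CITED2 at 3.39 ± 0.902, whose ranges also overlapped. EGR1 followed at 0.437 ± 0.0351, and EGR3 was at 0 to 0.02. LS180 at 0 h began with IER3 at 22.4 ± 0.680 and MCL1 at 21.6 ± 1.48, which overlapped, then IER2 at 7.28 ± 0.612. IER5 (4.17 ± 0.446), IER5L (3.99 ± 0.0608), TRIB1 (3.36 ± 0.565) and SRF (3.05 ± 0.413) each overlapped with the next, ahead of CITED2 at 2.25 ± 0.380, EGR1 at 0.143 ± 0.0231 and EGR3 at 0.01. TRIB1 thus ranked second in HCT116 and sixth in LS180. After 4 h the order had changed: in HCT116 MCL1 (6.99 ± 0.682), IER3 (3.08 ± 0.294) and SRF (2.96 ± 0.295) led, and in LS180 MCL1 (2.79 ± 1.04) and SRF (1.74 ± 0.563). IER3 and SRF overlapped in the former, MCL1 and SRF in the latter.

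**Figure D4:**
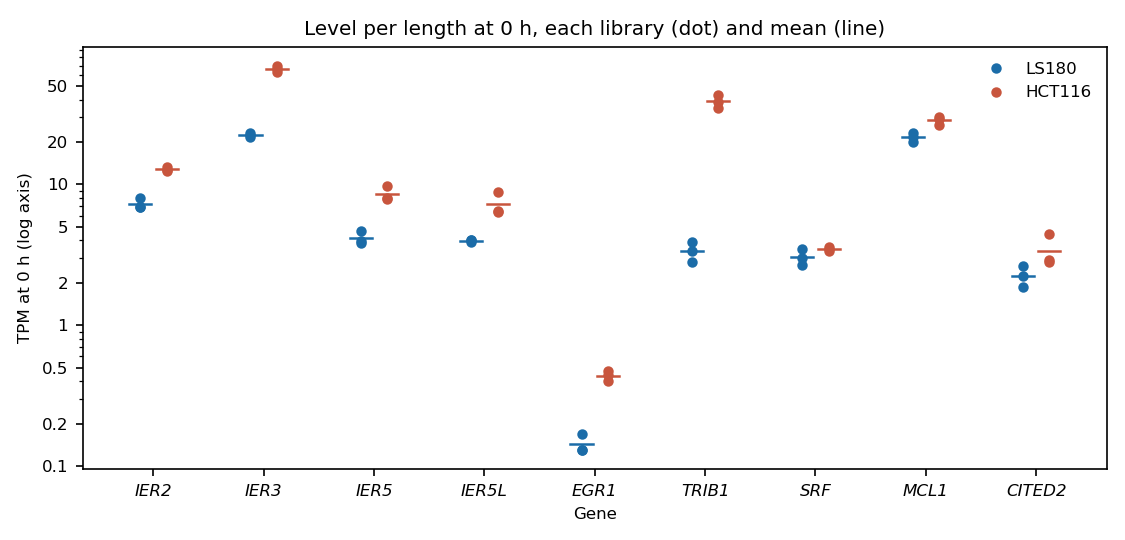
TPM at 0 h on a log axis for each library (dots) and the group mean (lines), for 9 genes along the x axis, blue for LS180 and red for HCT116. TRIB1 shows the widest gap between the lines, at 3.36 and 38.9 TPM, and EGR1 is the lowest in both.

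In the siRNA experiment, a separate set of LS180 libraries made from mRNA, siCTRL cells held MCL1 at 96.3 ± 0.919 TPM (SD, n = 2), IER3 at 92.6 ± 1.44, IER2 at 49.4 ± 2.80 and SRF at 20.4 ± 0.361. TRIB1 (17.8 ± 0.325), IER5L (13.98 ± 0.545), CITED2 (13.6 ± 0.644) and IER5 (11.1) followed, with an overlap only between IER5L and CITED2. EGR1 was at 5.01 ± 0.0283 and EGR3 at 0.19 ± 0.113. With siSTAU1 the first 5 kept this order, and CITED2 at 16.9 ± 0.672 moved above IER5L at 12.9 ± 1.57. Because RNA selection and genome build differed, these levels were not compared with those of the actinomycin D libraries.

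For each gene the single most similar other gene was found from its 4 log2 changes against 0 h, among 10053 genes averaging at least 5 CPM. SRF had the nearest match, ASXL2 (root mean square difference 0.024 on the log2 scale), then MCL1 with C22orf29 (0.076), IER2 with HIST1H2BK (0.115), CITED2 with ZNF823 (0.155) and IER5 with ZNF574 (0.156). Further away were TRIB1 with HIST2H2AA3 (0.266), IER3 with HIST1H2AK (0.304), IER5L with ZNF503 (0.304) and EGR1 with ZNF564 (0.331). Of these, 4 are zinc finger genes by name and 3 are histone genes, whose near-identical copies share reads, so that their separate levels are uncertain.

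The pathway lists after actinomycin D differed in how far they fell. Over all 17256 genes tested, 31.1% were called lower and 26.6% higher in LS180 at 4 h, and 23.7% and 26.2% in HCT116. Of 42 other immediate early genes, 41 fell and 1 rose in LS180 at 4 h (median log2 change -2.94), and 40 fell and 1 rose in HCT116 (median -2.55), with medians of 0.00 and 0.03 over all genes. DUSP6, the ERK phosphatase, fell 35.6-fold and 27.5-fold, and the transcription factor MYC 57.3-fold and 32.8-fold. The gene that rose was FOSB in both lines, from 0.395 to 0.482 CPM at 0 h to 1.93 to 3.81 at 4 h in LS180, and from 0.533 to 0.838 to 1.21 to 1.58 in HCT116. Under ribosomal protein scaling the counts were 41 lower and 1 higher in each line. The EGR corepressor NAB2 fell 9.65-fold in LS180, from 9.93 to 10.9 CPM at 0 h down to 0.847 to 1.47 at 4 h. In HCT116 it fell 3.31-fold, from 23.0 to 24.3 CPM down to 6.11 to 8.87, and the line difference was 1.54 ± 0.21 (log2, SE; edgeR adjusted p = 4.81e-05). MKL1, an SRF coactivator, fell 4.58-fold and 2.60-fold. Over the 7 SRF partners and EGR corepressors, however, 5 fell and none rose in LS180 (median log2 change -0.32), whereas in HCT116 3 fell and 4 rose (median 0.16). The 4 rises in HCT116 were NAB1, ELK3, ELK1 and ELK4, and none of them passed under ribosomal protein scaling. The contrast between the lines moved with the scaling. RLE gave 4 lower and 2 higher in LS180, and 3 and 4 in HCT116. Total library size gave 5 and 0, and 3 and 1, and ribosomal protein scaling 7 and 0, and 3 and 0.

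Among the partners of TRIB1, CITED2 and MCL1, 12 of 17 fell and 2 rose in LS180 at 4 h, and 11 fell and 3 rose in HCT116. CEBPB, a C/EBP factor of the family that TRIB1 targets, fell 7.28-fold and 4.92-fold, and FBXW7, a ubiquitin ligase subunit that recognises MCL1, fell 2.60-fold and 2.79-fold. Of 7 paralogs, 6 fell and none rose in LS180 at 4 h, and 4 fell and 1 rose in HCT116. TRIB3 fell 10.1-fold and 4.48-fold and BCL2L1, the antiapoptotic relative of MCL1, 2.34-fold and 1.33-fold. TRIB2, with the smallest adjusted p of the paralogs in HCT116, fell 1.74-fold there. The ERK kinase genes and the cytoskeletal SRF targets mostly went the other way relative to the library: 8 of 15 and 15 of 19 rose in LS180 at 4 h, with 3 and 1 lower, and 10 of 15 and 14 of 19 in HCT116, with 1 and 0 lower. With total library size the ERK genes gave 2 higher and 4 lower in LS180 and 3 and 2 in HCT116, and the cytoskeletal targets 6 and 1, and 6 and 0. An example was the tropomyosin TPM2, with a log2 change of 0.58 in LS180 and 0.54 in HCT116. Under ribosomal protein scaling, which lowered the median of all genes by 0.54 in LS180 and from 0.03 to -0.33 in HCT116, none of these rose. Then 11 of 15 and 8 of 19 fell in LS180, and 6 of 15 and 2 of 19 in HCT116. In the main scaling FHL2 was the sole cytoskeletal target that fell in LS180 (log2 change -0.92).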

How the data were processed

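Per the labels, the siRNA libraries were made from mRNA and the actinomycin D libraries from total RNA, both stranded. The authors' tools, per the submitters' processing notes, were cutadapt, STAR 2.7 and RSEM 1.3.1, with hg38 for siRNA and hg19 for actinomycin D. Neither annotation release nor strand setting is given in the sources used here. The deposited RSEM tables hold expected counts, TPM (used for order only) and effective lengths (used as an offset in 1 alternative).

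Expected counts were rounded and tested by two-sided quasi-likelihood F tests in edgeR 4.0.16 with R 4.3.3 (TMM, filterByExpr, glmQLFit, glmQLFTest). P-values were Benjamini-Hochberg adjusted over every gene in the fit and called at 0.05. One fit held the 4 siRNA libraries (14073 genes) and another the 18 actinomycin D libraries in 6 groups (17256 genes). CPM use TMM library sizes. SE is the absolute log2 change divided by the square root of F. Members and lists were chosen with earlier results of these data known. Named genes were all members, up to 2 per list and comparison by smallest adjusted p, the nearest gene of each member, and, chosen after their values were seen, FOSB and other genes that make up a small count. Same-numbered HCT116 libraries deviated together (9 correlations of 0.183 to 0.577, all over 0.1). The 18 correlations between different numbers ran from -0.431 to 0.300, positive only between libraries 2 and 3. Same-numbered libraries in LS180 (-0.232 to 0.160) and siRNA (-0.058) did not deviate together. The main fits paired no libraries, and pairing entered only through the replicate block, an alternative. Alternatives were RLE, total library size, ribosomal protein scaling, DESeq2 1.42.0, filters, effective length, the groups compared alone, a replicate block and libraries left out. The fits were tested on simulated data. Plots used matplotlib 3.10.9.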

Additional observations from a re-analysis of the deposited data

Results flagged for a closer look

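The change after actinomycin D differed between HCT116 and LS180, by the edgeR test of that difference itself, in 7 results, given as log2 HCT116 minus LS180. At 2 h these were IER2 (-0.46), IER5 (0.71) and MCL1 (0.65), where 5.24% of all genes were called higher and 0.394% lower. At 4 h they were IER2 (-0.57), EGR1 (-1.14), TRIB1 (-0.80) and MCL1 (0.75), where 12.3% of all genes were called higher and 1.33% lower. Under ribosomal protein scaling only IER5 at 2 h and MCL1 at 4 h kept their call.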

How the results depend on the processing

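Of 2386 alternative values for 91 results on the group, 2277 kept their direction and side of the threshold, and 54 of 70 called results did so under every alternative run. Counts of genes from the group that were called moved as follows. Ribosomal protein scaling gave 3 (siSTAU1), 1 (line difference at 2 h) and 1 (at 4 h), fitting only the groups compared gave 5 (line difference at 2 h), and leaving out LS180 4 h libraries 2 and 3 gave 1 (LS180, 4 h against 2 h). Counts over all genes moved to 1341 (LS180, 4 h against 2 h) and 990 (line difference at 4 h) without LS180 4 h libraries 2 and 3. Total library size gave 3355 (HCT116 at 2 h), 1695 (HCT116, 4 h against 2 h) and 470 (line difference at 2 h), where ribosomal protein scaling gave 373 and effective length 635. With single libraries left out, the siSTAU1 counts ranged from 4 to 7 of the group and from 4073 to 6394 of all genes. All-gene counts ranged from 3358 to 6555 (LS180, 4 h against 2 h), 1700 to 3693 (HCT116, 4 h against 2 h), 453 to 1042 (line difference at 2 h) and 1724 to 4455 (at 4 h).

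Directions turned in these cases, of which only SRF and MCL1 after siSTAU1 had been called. Ribosomal protein scaling gave SRF -0.061 and MCL1 -0.014 (siSTAU1), CITED2 -0.106 (LS180, 4 h against 2 h) and IER5 0.065 (line difference at 4 h). Without LS180 4 h libraries 2 and 3, EGR1 was 0.181 and TRIB1 0.104 (LS180, 4 h against 2 h), and IER3 -0.284 (line difference at 4 h). The IER3 line difference at 4 h was also -0.053 without a filter, -0.085 with at least 1 CPM and -0.013 without the HCT116 libraries numbered 1. For TRIB1 the line difference at 2 h, 0.006 in the main fit, was -0.096 (RLE), -0.013 (total library size), -0.094 (DESeq2), -0.144 (no filter), -0.146 (at least 1 CPM), -0.181 (effective length) and -0.035 (without the HCT116 libraries numbered 1). With single libraries left out, values ranged from -1.12 to 0.119 (EGR3) and -0.122 to 0.067 (IER5L) after siSTAU1, -0.177 to 0.173 (EGR1, LS180, 4 h against 2 h), -0.059 to 0.232 (SRF) and -0.179 to 0.069 (TRIB1) for the line difference at 2 h, and -0.11 to 0.138 (IER3) and -0.358 to 0.016 (IER5) at 4 h. The cause was not tested.

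The replicate block, by which same-numbered libraries are paired, changed no call of the group: 7 of 10 were called after siSTAU1 and 9 of 9 in HCT116 at 4 h, and over all genes the siSTAU1 count was 7064. In the actinomycin D fit the effect of each library number was shared by both lines. Same-numbered libraries of different lines did not deviate together (correlations of -0.075 to 0.171, median 0.008). The block therefore cannot decide whether pairing within HCT116 alone would change a call. Depth limits EGR3, at up to 5 counts, and EGR1 after actinomycin D, where 14 to 46 counts per library were left.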
